A study of Mus musculus with 10 samples.

Results

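Hepatokines are hormones that the liver secretes into the blood. Transcripts of 9 mouse hepatokine genes linked to energy balance were followed in livers of KL mice, a model of lung cancer in which some animals develop cancer anorexia–cachexia syndrome (CACS) and others do not (NCACS). The genes were Gdf15, Fgf21, Angptl4, Angptl8, Inhbe, Lect2, Enho, Tsku and Fgl1. They were listed by name for the function of their products, with earlier results of these data known, and each matched 1 row among the 43629 genes counted. All 9 passed the filter on low counts that left 14143 genes to be tested. The mice were male, and both groups carried the Cre-dependent tumour alleles of the model, floxed Lkb1 on both chromosomes among them, in a line backcrossed to FVB. Their lung tumours had been started in adults of 12 to 20 weeks with adenovirus that expresses Cre from the CMV promoter and was given through the nose, so that every liver came from a tumour-bearing animal. The groups differ by weight loss and not by an assigned treatment. The 5 NCACS mice (numbers 11 to 15) had weight changes between -14 and -3%, and the 5 CACS mice (numbers 16 to 20) between -33 and -29%. Livers of mice without tumours were not analysed here, and food intake and time of collection were not given in the sources used here. Each library is a separate mouse according to its label.

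Some hepatokines report nutritional state and others report stress or inflammation. FGF21 is induced in the fasted liver by the fatty acid sensor PPARα and under amino acid shortage by the transcription factor ATF4, and it acts through a fibroblast growth factor receptor together with the co-receptor β-Klotho. GDF15 is a stress hormone that lowers food intake through GFRAL, a receptor of the hindbrain. ANGPTL4 and ANGPTL8 inhibit lipoprotein lipase and thereby direct circulating triglyceride between tissues in fasting and feeding. The other products are activin E (from Inhbe), the secreted protein LECT2, adropin (from Enho), tsukushi (from Tsku) and fibrinogen-like 1 (from Fgl1).

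RefSeq gave windows of 250 bases before to 50 after the transcription start (GRCm38.p6) for 6 of the 9 genes, namely Gdf15, Fgf21, Angptl8, Inhbe, Lect2 and Tsku. Angptl4, Enho and Fgl1 had no entry. The windows were searched on both strands for the ATF4 element TGATGNAA, the E-box CACGTG, the STAT element TTCNNNGAA, the glucocorticoid element ACANNNTGT, the D-box TTATGNAA of the clock output factors and the TATA box TATAAA. Of 32544 promoter windows of this length, 3.91% hold the ATF4 element, 7.17% the E-box, 8.33% the STAT element, 6.83% the glucocorticoid element, 3.39% the D-box and 13.6% the TATA box. The ATF4 element was found in 3 of the 6 windows, and these sites are shown because they are the one match that several of the genes share. Each is printed 5′ to 3′ on the strand of its gene, as 28 bases with the element in capitals, and in Fgf21 and Inhbe the element reads on the opposite strand.
Fgf21 (chr7:45615612-45615639, minus strand): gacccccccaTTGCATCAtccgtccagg
Angptl8 (chr9:21835370-21835397, plus strand): gccatcagtcTGATGCAAtggctgagcc
Inhbe (chr10:127352012-127352039, minus strand): atcctctttcTTGCATCAtgcatgtcca

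The first base of the element lies at -139 from the start of Fgf21, at -130 from that of Angptl8 and at -181 from that of Inhbe. The RefSeq start of Inhbe lies 2563 bases inside the start that GENCODE gives, and GENCODE counts this site as transcribed. The Fgf21 window was the only one of the 6 with any of the other motifs. The 150 bases before its start are shown because they hold the ATF4 element, the E-box and the TATA box together, each in capitals in that order.
Fgf21 (chr7:45615491-45615640, minus strand): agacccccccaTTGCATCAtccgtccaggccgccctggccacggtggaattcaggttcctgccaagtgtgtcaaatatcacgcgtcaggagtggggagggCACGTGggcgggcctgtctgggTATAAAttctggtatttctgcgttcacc

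A match of letters is a description of the window and does not show that a factor binds there.

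No hepatokine gene of the 9 passed the test between CACS and NCACS livers. With edgeR's quasi-likelihood test, Benjamini-Hochberg adjusted over all genes tested, 0 of 9 had an adjusted p under 0.05, against 538 of 14143 genes (3.8%), of which 267 (1.89%) were higher and 271 (1.92%) lower in CACS livers. At an unadjusted p under 0.05 the count was 4 of 9 (Angptl4, Lect2, Fgf21 and Tsku), against 21.6% of all genes. DESeq2 called 2 of the 9 (Tsku higher, Lect2 lower), against 9.8% of all genes, and limma-voom called 0. The livers of the groups did not overlap for 7.07% of all genes and for 0 of the 9. The mean was higher in CACS livers for 6 genes and lower for 3, and the median log2 fold change was 0.52, against -0.01 over all genes tested, of which 49.4% were higher. Levels below are reads of a gene scaled to library size (CPM, with TMM factors), and every difference is a log2 fold change of CACS over NCACS with its standard error (SE). Since whole liver was measured, fewer cells of a type and less RNA per cell cannot be told apart.

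**Figure D1:**
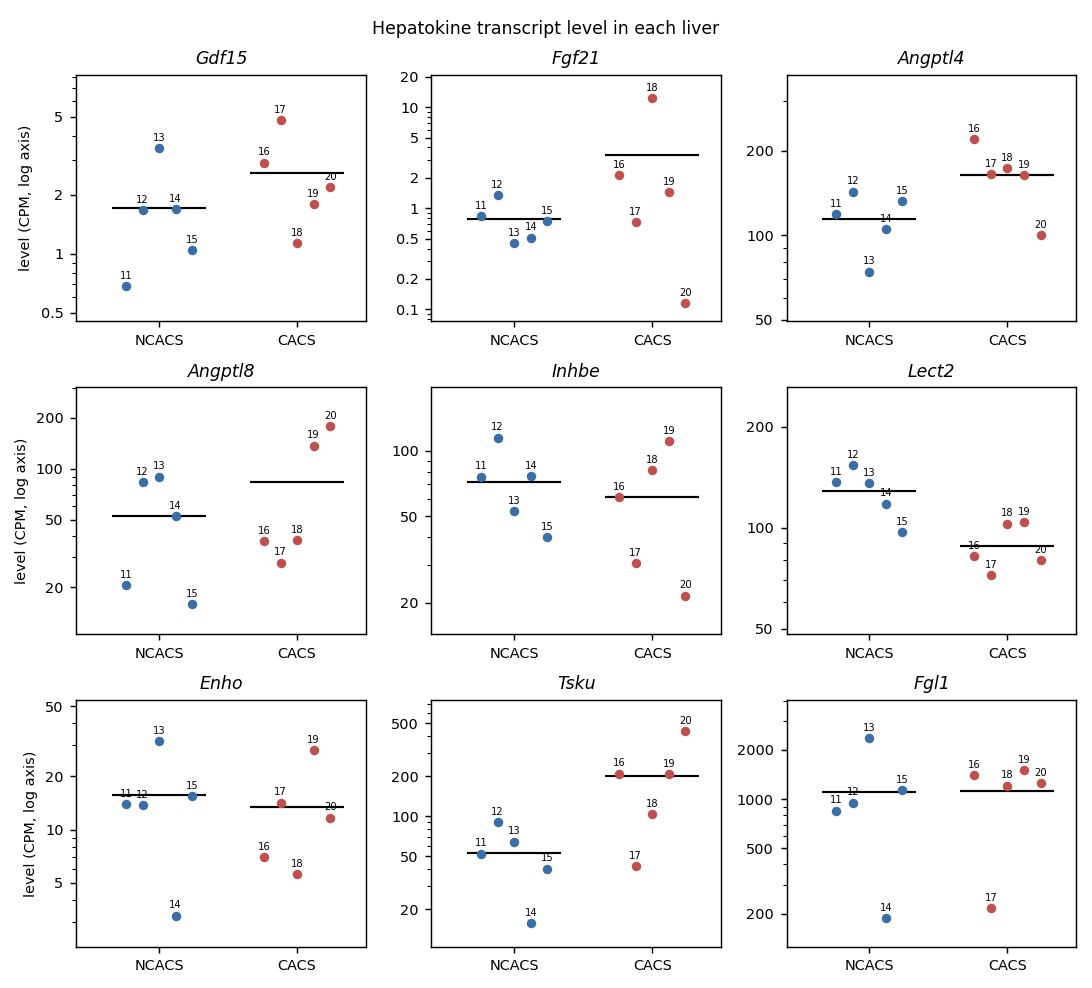
Level of each hepatokine transcript in CPM (log axis) in 5 NCACS and 5 CACS livers. Points are single livers labelled with the mouse number and lines are group means. The groups overlap in every panel, and 4 of 5 CACS livers lie above all NCACS livers for Tsku and for Angptl4.

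Fgf21 (ENSMUSG00000030827, chromosome 7 of GRCm38, 45613886 to 45615490, minus strand, 3 exons), the fasting and starvation hormone, was scarcely detected in most livers. The NCACS livers 11 to 15 had 0.831, 1.34, 0.453, 0.512 and 0.741 CPM. The CACS livers 16 to 20 had 2.12, 0.734, 12.4, 1.44 and 0.115 CPM. The highest and the lowest of all 10 livers were thus both CACS livers, with 381 counts in CACS 18 and 4 counts in CACS 20, a 109-fold range. Counting error alone puts the level of CACS 18 between 11.2 and 13.7 CPM and that of CACS 20 between 0.0312 and 0.293 CPM (exact Poisson 95% intervals). Means were 0.776 ± 0.354 CPM in NCACS livers against 3.37 ± 5.12 CPM in CACS livers (SD, n = 5 for both), and the log2 fold change was 2.09 (SE 0.895, 95% interval 0.14 to 4.05, edgeR adjusted p = 0.202). With limma-voom, which works on the log scale, it was 0.75 (adjusted p = 0.718) with all 10 livers kept. The edgeR estimate of 2.09 rested on 1 liver, since with edgeR it was 0.50 without CACS 18 (adjusted p = 0.683). An exact two-sided permutation test of the mean log2 CPM over all 252 assignments gave p = 0.508.

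Gdf15 (ENSMUSG00000038508, chromosome 8, 70629393 to 70632456, minus strand, 3 exons), the anorexigenic stress hormone, was also present at few counts, between 23 and 184 per liver. Its levels were 0.682, 1.67, 3.46, 1.69 and 1.05 CPM in NCACS livers 11 to 15. In CACS livers 16 to 20 they were 2.92, 4.83, 1.14, 1.80 and 2.20 CPM. Only CACS 17 exceeded the highest NCACS liver, which was NCACS 13. The log2 fold change was 0.60 (SE 0.449, 95% interval -0.38 to 1.58, edgeR adjusted p = 0.47), and it lay between 0.25 without CACS 17 and 1.02 without NCACS 13. Transcripts of Gfral, which encodes the GDF15 receptor, had 0 counts in every liver.

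Angptl4 (ENSMUSG00000002289, chromosome 17, 33773750 to 33781830, minus strand, 7 merged exons) encodes the lipoprotein lipase inhibitor of fasting. Levels in NCACS livers 11 to 15 were 119, 143, 74.2, 105 and 132 CPM. In CACS livers 16 to 20 they were 220, 165, 173, 164 and 100 CPM. CACS 20 lay among the NCACS livers and the other 4 CACS livers lay above all of them. Means were 115 ± 26.7 CPM (SD, n = 5) and 165 ± 42.5 CPM (SD, n = 5), and the log2 fold change was 0.52 (SE 0.21, 95% interval 0.06 to 0.98, edgeR adjusted p = 0.177). The exact permutation p was 0.0794. Without CACS 20 the log2 fold change was 0.66, with an adjusted p of 0.0922.

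Angptl8 (ENSMUSG00000047822, chromosome 9, 21835510 to 21837347, plus strand, 4 merged exons) encodes the lipase inhibitor that is induced by feeding and insulin. The NCACS livers 11 to 15 had 20.5, 83.3, 90.1, 52.8 and 15.9 CPM. The CACS livers 16 to 20 had 37.4, 27.9, 37.8, 137 and 178 CPM. The CACS livers fell into 3 low and 2 high ones, and the 3 low ones lay inside the NCACS range. The log2 fold change was 0.67 (SE 0.61, 95% interval -0.66 to 2.01, edgeR adjusted p = 0.562), and it was 0.20 without CACS 20.

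Tsku (ENSMUSG00000049580, chromosome 7, 98350668 to 98361328, minus strand, 5 merged exons) encodes tsukushi, a secreted leucine-rich repeat protein. It had 52.3, 89.7, 64.4, 15.6 and 40.3 CPM in NCACS livers 11 to 15. In CACS livers 16 to 20 it had 209, 42.1, 103, 207 and 438 CPM. CACS 17 alone lay within the NCACS range. Means were 52.4 ± 27.5 CPM (SD, n = 5) and 200 ± 151 CPM (SD, n = 5), a fitted 3.81-fold difference with a log2 fold change of 1.93 (SE 0.569, 95% interval 0.69 to 3.17). The edgeR adjusted p was 0.0802, the DESeq2 adjusted p 0.0297 and the exact permutation p 0.0476, which is not adjusted for the 9 genes. The call also depended on single livers, with an edgeR adjusted p of 0.0375 without CACS 17 and a log2 fold change of 1.42 without CACS 20.

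Lect2 (ENSMUSG00000021539, chromosome 13, 56542464 to 56548502, minus strand, 5 exons) encodes leukocyte cell-derived chemotaxin 2, a hepatocyte product that rises with overnutrition. It varied least of the 9 between livers of a group. The NCACS livers 11 to 15 had 137, 154, 136, 118 and 96.9 CPM. The CACS livers 16 to 20 had 82.2, 72.5, 103, 104 and 80.3 CPM. NCACS 15 lay between the 3 lower and the 2 higher CACS livers, and the other 4 NCACS livers lay above all CACS livers. Means were 128 ± 21.6 CPM (SD, n = 5) and 88.5 ± 14.4 CPM (SD, n = 5), and the log2 fold change was -0.53 (SE 0.143, 95% interval -0.85 to -0.22). The edgeR adjusted p was 0.0598, the DESeq2 adjusted p 0.0113 and the exact permutation p 0.0238, again not adjusted for the 9 genes. Without NCACS 15 the log2 fold change was -0.62 and the edgeR adjusted p 0.0472. NCACS 15 also stood apart in the clock output gene Dbp, with 1.27 CPM against 52.1 to 82.9 CPM in the other 4 NCACS livers and 18.8 to 58.8 CPM in CACS livers. The part of collection time in the Lect2 difference was not tested.

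Inhbe (ENSMUSG00000047492, chromosome 10, 127348857 to 127354411, minus strand, 2 exons) encodes the subunit of activin E, which restrains lipolysis in adipose tissue. Levels were 76.1, 115, 52.8, 76.5 and 40.1 CPM in NCACS livers 11 to 15. In CACS livers 16 to 20 they were 61.4, 30.5, 81.2, 111 and 21.6 CPM. Both groups spread over a similar range, with 2 CACS livers below all NCACS livers. The log2 fold change was -0.24 (SE 0.412, 95% interval -1.14 to 0.66, edgeR adjusted p = 0.783). Its neighbour in the family, Inhbc, had a log2 fold change of 0.06 (SE 0.224, adjusted p = 0.9).

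Enho (ENSMUSG00000028445, chromosome 4, 41638144 to 41640324, minus strand, 2 exons) encodes adropin. It had 13.9, 13.7, 31.8, 3.25 and 15.4 CPM in NCACS livers 11 to 15 and 6.97, 14.2, 5.61, 28.3 and 11.7 CPM in CACS livers 16 to 20. The lowest and the highest liver were both NCACS livers. The log2 fold change was -0.22 (SE 0.528, 95% interval -1.38 to 0.93, edgeR adjusted p = 0.849), and it was 0.21 without NCACS 13.

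Fgl1 (ENSMUSG00000031594, chromosome 8, 41191434 to 41215156, minus strand, 6 merged exons) encodes fibrinogen-like 1, a hepatocyte product of the acute phase response. The NCACS livers 11 to 15 had 853, 953, 2369, 188 and 1143 CPM. The CACS livers 16 to 20 had 1407, 217, 1210, 1499 and 1259 CPM. One liver of each group, NCACS 14 and CACS 17, lay far below the rest. The log2 fold change was 0.02 (SE 0.578, 95% interval -1.24 to 1.29, edgeR adjusted p = 0.987), and its sign turned in 7 of the 10 fits without 1 liver, which lay between -0.25 and 0.51. The interval is wide in both directions, so that the mean difference is poorly determined.

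**Figure D2:**
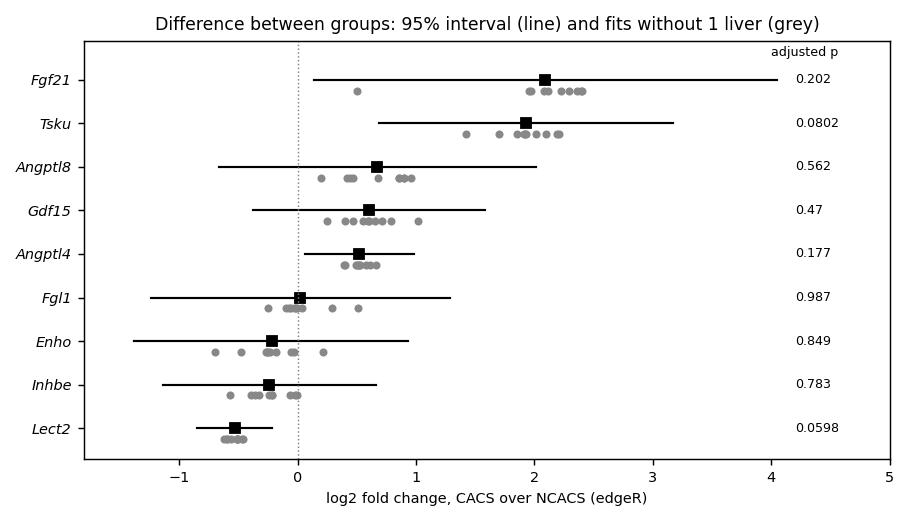
Log2 fold change of CACS over NCACS livers for each hepatokine gene, from edgeR. Squares are estimates from all 10 livers, lines are 95% intervals, grey points are the 10 fits without 1 liver each, and the column on the right gives adjusted p-values. The intervals of Fgf21, Tsku, Angptl4 and Lect2 exclude 0 before adjustment, and the Fgf21 estimate drops to 0.50 without CACS 18.

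Compared per kilobase of exon (CPM divided by the exon length in kilobases), the most abundant of the 9 transcripts was Fgl1 in both groups, with a mean of 248 ± 179 in NCACS livers and 252 ± 117 in CACS livers (SD, n = 5 for both). In NCACS livers it was followed by Lect2 (140), Angptl8 (60.7), Angptl4 (32.4), Tsku (17.2), Inhbe (13.6) and Enho (12.3). Gdf15 (0.923) and Fgf21 (0.816) were last. Several neighbours in that order did not keep it from liver to liver. Inhbe exceeded Enho in 3 of 5 NCACS livers, Angptl8 exceeded Angptl4 in 3 of 5 and Gdf15 exceeded Fgf21 in 2 of 5, whereas Lect2 exceeded Angptl8, and Enho exceeded Gdf15, in all 5. In CACS livers the order was Fgl1, Angptl8 (96.8), Lect2 (96.3), Tsku (65.6), Angptl4 (46.5), Inhbe (11.5), Enho (10.5), Fgf21 (3.54) and Gdf15 (1.39). Angptl8 exceeded Lect2 in 2 of 5 CACS livers and Tsku exceeded Angptl4 in 3 of 5. Tsku thus lay below Angptl4 on average in NCACS livers and above it in CACS livers. No test of these orders was made.

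Most of these genes varied widely between livers of the same group. The SD of log2 CPM within groups was 1.64 for Fgf21, 1.26 for Fgl1, 1.19 for Angptl8, 1.13 for Tsku and 1.06 for Enho, against a median of 0.27 over all genes tested. Among all genes these values ranked at percentiles 99.6, 98.9, 98.6, 98.2 and 97.8. Gdf15 and Inhbe followed with 0.80 each. Angptl4 had 0.39 (percentile 69.9) and Lect2 0.24 (percentile 45.4), which among genes of similar level (mean log2 CPM within 1) ranked at percentiles 88.4 and 70.5. The genes with the widest spread were therefore also those with the widest intervals. Livers did not stand apart in the same way for every gene. NCACS 14 was the lowest of its group for Enho, Tsku and Fgl1, and CACS 17 was the lowest of its group for Angptl8, Lect2, Tsku and Fgl1. CACS 20 was the highest of its group for Angptl8 and Tsku and the lowest for Fgf21, Angptl4 and Inhbe.

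**Figure D3:**
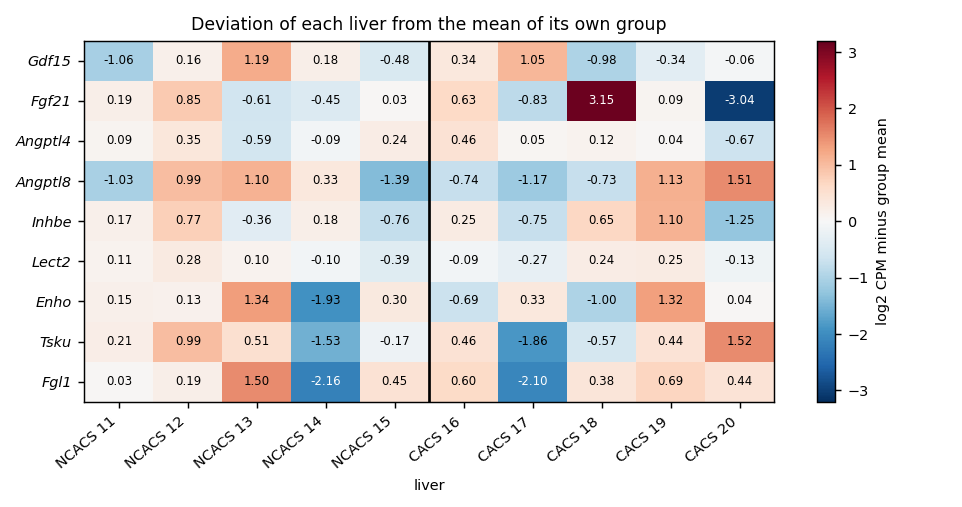
Log2 CPM of each hepatokine gene (rows) in each liver (columns) minus the mean of that liver's own group, with the value in each cell and blue for negative and red for positive values. CACS 18 and CACS 20 deviate in opposite directions for Fgf21 (3.15 and -3.04), and NCACS 14 and CACS 17 are low for both Tsku and Fgl1.

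To describe what varied together within groups, the group mean was subtracted from each gene's log2 CPM, and Pearson's r was taken across the 10 livers. These values are descriptions of 10 libraries, and they share depth and any factor that differed between animals. Fgl1 ran with the acute phase genes. Its closest genes among the 14142 others were Lrg1 (r = 0.99), Cpn2 (0.98) and Itih3 (0.97), and 18 of 23 genes of a STAT3 and acute phase list had r over 0.7, against 5.18% of all genes. The list included the IL-6 target Lcn2 (0.97) and serum amyloid A1, Saa1 (0.96). Lcn2 stood at 5.24 CPM in NCACS 14 and at 5.14 CPM in CACS 17, the 2 livers lowest in Fgl1, and at 4117 CPM in NCACS 13, the liver highest in Fgl1. The median r of the list was 0.82 and stayed at 0.74 without NCACS 14 and CACS 17.

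Tsku had a median r of 0.74 with the same list, with 15 of 23 genes over 0.7 against 5.25% of all genes, but without NCACS 14 and CACS 17 the median was 0.29. Its closest genes were Tbkbp1 (r = 0.96), Spi1 (0.94) and Nrbp2 (0.93). Tsku and Fgl1 had an r of 0.80 with each other, which was 0.05 without those livers. Between the groups the pair did not run together, with a log2 fold change of 1.93 for Tsku and 0.02 for Fgl1. Saa1 had -3.47 (SE 1.2, edgeR adjusted p = 0.124, DESeq2 adjusted p = 0.0078).

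Fgf21 and Angptl4 ran with genes of fatty acid use. For Fgf21 the closest genes were the glycerol kinase gene Gk (r = 0.97), Ugcg (0.96) and Plce1 (0.96). Of 22 tested genes of a PPARα and fasting list, 12 had r over 0.7 with Fgf21, against 2.49% of all genes, among them Acsl1 (0.90) and Vnn1 (0.86). In CACS 18, the liver with 12.4 CPM of Fgf21, Acsl1 had 2070 CPM and Vnn1 129 CPM, the highest of all 10 livers, and in CACS 20 they had 552 and 8.82 CPM, the lowest. The median r of the list was 0.71, and it was 0.48 without these 2 livers. The closest genes to Angptl4 were Cpt1a (0.93), which carries fatty acids into mitochondria, Enpp2 (0.93) and Optn (0.92). For Angptl4, 11 of the 22 genes had r over 0.7, against 2.53% of all genes, and the median was 0.69, or 0.30 without NCACS 13 and CACS 20. Fgf21 and Angptl4 had an r of 0.66 with each other, and of 0.74 without CACS 18 and CACS 20, the 2 livers farthest from their group mean in Fgf21.

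Angptl8 had a median r of -0.61 with the PPARα list (-0.55 without NCACS 15 and CACS 20) and of 0.58 with a list of insulin, SREBP1c and ChREBP targets, in which 3 of 17 genes had r over 0.7 against 4.27% of all genes. Its r with Angptl4 was -0.59, and -0.11 without NCACS 13 and CACS 20, the 2 farthest livers of Angptl4. With Fgf21 it was -0.42, and 0.08 without CACS 18 and CACS 20, the 2 farthest livers of Fgf21. Fatty acid synthase, Fasn, had an r of 0.86 with Angptl8 and Srebf1 one of 0.72. Insig2 and Irs2 of the same list, which was not split into genes raised and genes lowered by insulin, had -0.85 and -0.84. The median with the insulin list was 0.34 without NCACS 15 and CACS 20. The insulin list was not alone in this. Of 14 genes of endoplasmic reticulum stress 3 had r over 0.7 with Angptl8, namely Creld2 (0.86), Hspa5 (0.75) and Manf (0.75). The median of that list was 0.37, and 0.36 without the same 2 livers. Fasn had 629 CPM in CACS 20, the liver with most Angptl8, and 137 CPM in NCACS 15, the liver with least. The closest genes were Wiz (0.94), Prkag1 (0.93) and Ddx39 (0.93).

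For Gdf15, Inhbe, Lect2 and Enho the median r with each of the 12 lists lay between -0.46 and 0.55. Inhbe and Lect2 had an r of 0.79 with each other, and of 0.83 without CACS 19 and CACS 20, the 2 farthest livers of Inhbe. The closest genes were 1810058I24Rik (0.98), the glucagon receptor gene Gcgr (0.95) and Rad51c (0.95) for Lect2, and 2610005L07Rik, Slc26a2 and Ocel1 (0.94 each) for Inhbe. For Enho they were Tnk2 (0.95), Taf6 (0.94) and Prepl (0.93), and for Gdf15 Vta1 (0.95), Lipo3 (0.95) and Samd4 (0.93). The ATF4 list, whose element stood in the windows of Fgf21, Angptl8 and Inhbe, had a median r of 0.08, -0.06 and 0.11 with these genes. Of its 18 tested genes 1 had r over 0.7 with each of them, against 2.49%, 4.27% and 1.56% of all genes. With Gdf15 the median was 0.20, and 2 of 18 had r over 0.7, against 1.61% of all genes, namely Ddit4 (0.80) and Atf4 (0.73). The median was 0.12 without NCACS 11 and NCACS 13, the 2 farthest livers of Gdf15. Of 13 glucocorticoid targets 3 had r over 0.7 with Gdf15, namely Tsc22d3 (0.78), Sgk1 (0.73) and Tat (0.72). The median of that list was 0.21, and 0.19 without the same 2 livers.

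**Figure D4:**
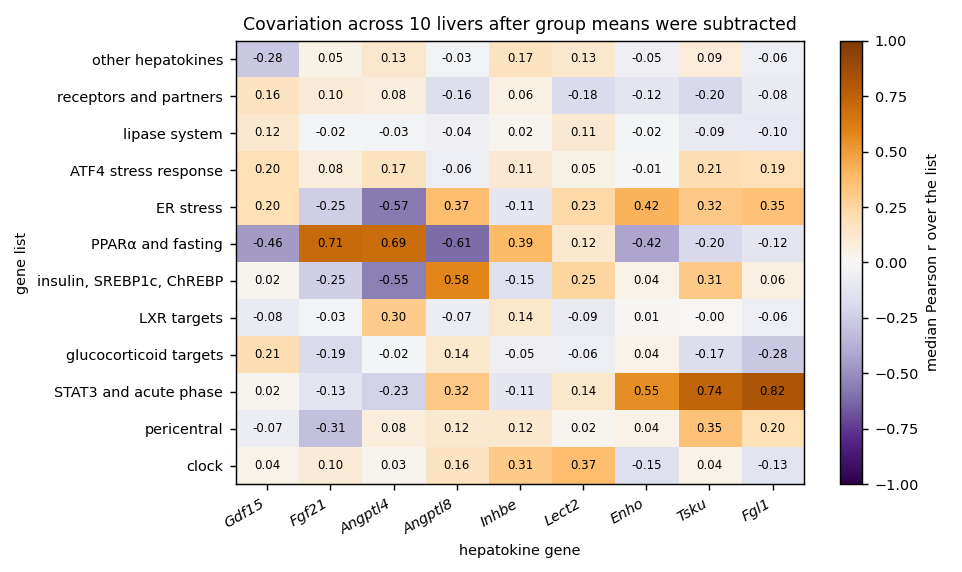
Median Pearson r between each hepatokine gene (columns) and the tested genes of 12 lists (rows), across 10 livers after group means were subtracted, on a colour scale from -1 to 1. The highest values are Fgl1 (0.82) and Tsku (0.74) with the STAT3 and acute phase list and Fgf21 (0.71) and Angptl4 (0.69) with the PPARα and fasting list.

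Between the groups, the lists of known regulators and their targets each held between 0 and 3 genes past the edgeR test, which 3.8% of all genes passed. DESeq2 called 9.8% of all genes, and 21.6% had an unadjusted p under 0.05. Of 22 PPARα and fasting genes 1 passed the edgeR test, with a median log2 fold change of -0.03. It was the lipid droplet gene Plin4 (2.15, SE 0.456, adjusted p = 0.0311). Cpt1a had 0.22 (adjusted p = 0.493). Plin2, also a lipid droplet gene, was lower by DESeq2 only (-1.15, edgeR adjusted p = 0.0889, DESeq2 adjusted p = 0.0108). Of the 22 genes 9 were higher and 13 lower, 5 had an unadjusted p under 0.05 and DESeq2 called 2. Of 18 tested ATF4 and stress response genes 1 was higher, the partner factor Cebpg (0.49, SE 0.0986, adjusted p = 0.0273), with a list median of 0.23. Atf3 had a log2 fold change of 1.22 with no overlap between groups and an adjusted p of 0.058, Chac1 had 1.23 (adjusted p = 0.266) and Atf4 itself 0.17 (adjusted p = 0.478). Of 14 genes of endoplasmic reticulum stress 0 passed, 4 had an unadjusted p under 0.05 and DESeq2 called 2.

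Of 17 insulin, SREBP1c and ChREBP genes 2 were lower, the desaturase gene Scd1 (-1.81, SE 0.42, adjusted p = 0.0388) and the sterol-regulated Insig1 (-1.08, SE 0.245, adjusted p = 0.0372), whereas Fasn had -0.14 (adjusted p = 0.884). Scd1 was also the one gene of 11 on the LXR list that passed. Of 13 glucocorticoid targets 3 were higher, namely Zbtb16 (2.59, SE 0.49, adjusted p = 0.0222), Fkbp5 (2.27, SE 0.511, adjusted p = 0.0359) and Dusp1 (1.89, SE 0.43, adjusted p = 0.0374), and the list median was 0.70. DESeq2 called 4 of the 13, and 7 had an unadjusted p under 0.05, against 21.6% of all genes. Of 23 STAT3 and acute phase genes 0 passed, and the median was -0.07, with 9 higher and 14 lower. An unadjusted p under 0.05 was found for 7 and DESeq2 called 4, against 21.6% and 9.8% of all genes. Of the DESeq2 calls 3 were lower, namely Saa2 (-4.85, DESeq2 adjusted p = 0.00124), Saa1 (-3.47, 0.0078) and Il1rn (-2.08, 0.00913). The other was higher, Cebpd (1.23, 0.0345). Of 17 pericentral genes 1 was lower (Lgr5, -0.78, adjusted p = 0.0408), and of 18 clock genes 0 passed, with 6 at an unadjusted p under 0.05 and 2 called by DESeq2. The list calls rested on all 10 livers together, since without 1 liver the glucocorticoid count lay between 0 and 2, the insulin count between 0 and 2 and the PPARα and ATF4 counts of higher genes between 0 and 1 and between 0 and 2. With limma-voom or the robust fit 1 glucocorticoid target passed, and the Lgr5 call was lost with raw library totals.

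Some other secreted liver factors did pass. Of 21 other hepatokine genes 3 were higher in CACS livers and 0 were lower, where 1.89% of all genes were higher. All 3 were without overlap between groups, as were 7.07% of all genes and also Ahsg of this list, which did not pass (0.54, adjusted p = 0.0889). With upper-quartile factors or without the filter 2 of the 21 were higher, and with DESeq2 4. Insulin-like growth factor 1, Igf1, averaged 492 ± 60.1 CPM in NCACS livers and 746 ± 133 CPM in CACS livers (SD, n = 5 for both), and its log2 fold change was 0.60 (SE 0.145, adjusted p = 0.0437). The fetuin B gene Fetub had 0.75 (SE 0.164, adjusted p = 0.0332). Inhbb, which encodes the activin B subunit and is a relative of Inhbe, averaged 1.34 ± 0.426 and 3.96 ± 1.30 CPM (SD, n = 5 for both) and had a log2 fold change of 1.56 (SE 0.303, adjusted p = 0.0233). Igfbp1, a fasting-induced hepatokine, had 1.60 (SE 0.856, adjusted p = 0.305). The list median was 0.29, and without 1 liver between 0 and 3 of its genes passed. Whether the 9 genes and these 21 differ in their share of calls was not tested.

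Receptors and partners through which the 9 products act gave no edgeR call in liver, with a median log2 fold change of -0.07. Of 17 tested genes 0 passed the edgeR threshold (3.8% of all genes), 2 had an unadjusted p under 0.05 (21.6%) and DESeq2 called 1 (9.8%). The one DESeq2 call was Fgfr1, a receptor of FGF21 that hepatocytes express weakly, at 5.25 ± 1.65 CPM against 10.7 ± 4.70 CPM (SD, n = 5 for both), a log2 fold change of 1.03 (SE 0.315, edgeR adjusted p = 0.0898, DESeq2 adjusted p = 0.0203). Klb, the FGF21 co-receptor β-Klotho, had 0.09 (adjusted p = 0.829) and the hepatocyte receptor Fgfr4 -0.07 (adjusted p = 0.804). In the lipase system on which ANGPTL4 and ANGPTL8 act, 1 of 17 genes was higher, Apoa5 (0.74, SE 0.184, adjusted p = 0.0487), which encodes a plasma activator of triglyceride clearance that ANGPTL8 opposes. That call was lost when raw library totals or upper-quartile factors replaced TMM and when no filter was used. Lpl, the lipase itself, averaged 12.6 ± 4.39 and 21.3 ± 11.3 CPM (SD, n = 5 for both), with a difference of 0.76 on the log2 scale (adjusted p = 0.264).

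In the annotation 3 of the 9 genes overlap another gene on the opposite strand, and the strand setting of the read counting is not given in the sources used here. Angptl8 lies whole within Dock6 over 1838 bases but shares 0 exon bases with it. Dock6 had between 429 and 1519 counts per liver and a log2 fold change of 0.20 (adjusted p = 0.704). Enho shares 15 exon bases with Dnaic1, which had at most 101 counts and a log2 fold change of -2.42 (adjusted p = 0.114), and spans part of Gm12406, which had at most 10 counts. Inhbe overlaps Gm47200, which was not analysed here. The exact values of Angptl8, Enho and Inhbe are therefore less certain than those of the other 6 genes.

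Markers of cell types were measured beside these results. Over all genes tested, 3.8% passed the edgeR test, 21.6% had an unadjusted p under 0.05 and DESeq2 called 9.8%. The log2 fold change was above 0 for 49.4% of all genes tested. All 8 hepatocyte markers were detected in every liver, and their summed level was 73232 to 120244 CPM in NCACS and 110838 to 137948 CPM in CACS livers, with 1 of 8 past the threshold (Hnf4a, 0.50, adjusted p = 0.0435). All 7 Kupffer cell markers had lower means in CACS livers (1 past the threshold, Cd5l, -0.90, adjusted p = 0.0374, with 4 at an unadjusted p under 0.05 and 3 called by DESeq2), with sums of 170 to 292 CPM in NCACS and 104 to 212 CPM in CACS livers. The 4 tested leukocyte markers of 7 were also lower on average, with 0 called, 4 at an unadjusted p under 0.05 and 2 called by DESeq2, and the list summed to 9.35 to 28.5 CPM and 5.74 to 13.6 CPM. Sums of 6 sinusoidal endothelial markers were 130 to 184 and 162 to 212 CPM, of 8 stellate markers 180 to 313 and 212 to 303 CPM, and of 5 cholangiocyte markers 33.6 to 52.7 and 20.3 to 49.4 CPM, with 0 calls by edgeR and by DESeq2 in each list and 0, 2 and 1 genes at an unadjusted p under 0.05. Lung epithelial markers, at 1.63 to 5.75 and 1.83 to 8.67 CPM, included 1 call (Sftpa1, 1.27, adjusted p = 0.0323). Adipocyte markers summed to at most 4.06 CPM, and exocrine pancreas markers to 41.9 to 57.2 CPM in NCACS and 9.02 to 23.9 CPM in CACS livers, almost all of it Cela1 (-1.54, adjusted p = 0.011), while the other 4 were at or near 0. Without 1 liver or another, every one of these marker calls but that of Cela1 was lost. The part of cell composition in the differences of the 9 genes was not tested.

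Total counts per liver were between 31459179 and 40746178, and counting error matters mainly for Gdf15 and Fgf21, with at most 184 and 381 counts in a liver. The recombined allele was not assayed in liver, where Stk11, the gene of Lkb1, averaged 71.8 ± 3.73 and 70.0 ± 7.98 CPM (SD, n = 5 for both). No preparation or sequencing batch is named in the labels.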

How the data were processed

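The authors sequenced liver mRNA of male KL mice, 5 NCACS and 5 CACS, from one end with a strand-preserving poly(A) kit. They aligned the reads to GRCm38 with STAR 2.4.1d and counted them per Ensembl gene with HTSeq 0.6.1, per the paper's methods and the submitters' processing notes, which also name DESeq2. The deposited values are raw counts with no normalization. The annotation release and the strand setting are not given in the sources used here. Of 43629 identifiers, 1081 had no symbol in GENCODE M21, and 0 columns were unused. No 2 livers of a group looked like copies of 1 library (smallest chi-square per degree of freedom 46.1).

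From the counts, genes were kept by filterByExpr and scaled by TMM, and edgeR 4.0.16 in R 4.3.3 gave quasi-likelihood p-values, which were Benjamini-Hochberg adjusted across the 14143 genes that passed (threshold 0.05). A prior count of 2 entered log2 CPM. SE is the absolute log2 fold change divided by the square root of F, and 95% intervals use the t quantile of the fit. DESeq2 1.42.0, limma 3.58.1 (voom), other size factors and filters, a robust fit, a stricter threshold, an exact two-sided permutation of the mean log2 CPM (252 assignments, smallest possible p = 0.00794) and leaving out each liver in turn were alternatives. The main edgeR fit, DESeq2 and limma-voom were checked on simulated counts in which 200 genes had been changed, and the other alternatives were not. The paper's methods name a batch correction, but the labels give no batch and it was not repeated. The members and gene lists were chosen with earlier results of these data known, so list counts are descriptions. Genes named in the text were the 9 members, list genes past the threshold (at most 4 a list) with at most 3 others, the 3 genes with the highest r with each member, overlapping genes and the paralog Inhbc. Dbp, Stk11, Vnn1 and further list genes beyond these were chosen after their values were seen. Counting intervals cover counting error only. Some genes covered by these rules are not reported here.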

Additional observations from a re-analysis of the deposited data

Results flagged for a closer look

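Within each group of 5, the gap between an extreme liver and its neighbour was divided by the range of the group and compared with Dixon's 95% critical value of 0.71. Of 18 combinations of gene and group 2 exceeded it, where chance gives about 1 in 20 for normally distributed values. The ratio was taken on CPM and not on log2 CPM, which was used for the spreads above. Fgf21 in CACS 18, at 12.4 CPM against 2.12 CPM in the next CACS liver, had a ratio of 0.837. As log2 CPM these were 3.64 and 1.12, and the lowest CACS liver, CACS 20, lay at -2.54, so that this flag depends on the scale. Fgl1 in CACS 17, at 217 CPM against 1210 CPM in the next CACS liver, had a ratio of 0.774, and Fgl1 in NCACS 14 was similarly low at 188 CPM.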

How the results depend on the processing

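No paired analysis was possible because no mouse number occurs in both groups. Apart from fits without 1 liver, the log2 fold changes kept their direction under each alternative run, which covers all 9 genes except for the filter of at least 10 counts in every liver, where Fgf21 dropped out. Fgf21 moved most, to 0.75 with limma-voom and to 0.85 as a difference of mean log2 CPM. For the 9 genes the only changes of side were Lect2 and Tsku, past 0.05 with DESeq2 (-0.54 and 1.92) and by the unadjusted exact permutation test (-0.53 and 1.75). DESeq2 called 1386 genes (672 higher, 714 lower) and 2 of the 9 members (1 higher, 1 lower). Without the filter 173 genes were called higher, and an adjusted p under 0.01 left 34 genes, 14 higher and 20 lower. Without 1 liver, the genes called ranged from 178 to 519 (79 to 246 higher, 96 to 273 lower) and the members called from 0 to 1, in either direction. The log2 fold changes then ranged from 0.25 to 1.02 for Gdf15, 0.50 to 2.40 for Fgf21, 0.39 to 0.66 for Angptl4, 0.20 to 0.96 for Angptl8, -0.57 to -0.00707 for Inhbe, -0.62 to -0.46 for Lect2, -0.70 to 0.21 for Enho, 1.42 to 2.21 for Tsku and -0.25 to 0.51 for Fgl1. The sign turned for Enho without NCACS 13 and for Fgl1 without NCACS 11, 12 or 14 or CACS 16, 18, 19 or 20. The cause of these changes was not tested.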
